A study of Homo sapiens with 4 samples.

Results

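Intergenic peaks are stretches of the genome outside annotated genes over which more RNA reads were found after immunoprecipitation of NSUN2 than in the matching input. They were taken from the authors' peak lists of vehicle and lactate cells as the peaks whose annotation ends in "intergenic", whatever the biotype beside it. The vehicle list held 7219 of them among 95785 peaks, and the lactate list 2761 among 48104, which makes 9980 of 143889 peaks. All lay on chromosomes 1 to 22, X and Y. The lists name no gene and no strand for them, so each is described here by its position on GRCh38 and by its nearest gene in RefSeq. Groups of peaks are named by protein-coding genes beside them.

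The cells were PANC-1, an established line of pancreatic ductal adenocarcinoma cells labelled wild-type, grown with 10% serum and given 30 mM sodium lactate, or ddH2O as the vehicle, for 24 h. RNA was immunoprecipitated (IP) for 4 h with an antibody against NSUN2, and input RNA was kept from before that step. Input and IP of vehicle and of lactate cells make 4 groups of 1 library each. The spread between replicates is therefore unknown for every value, and no difference between the lists was tested. Epithelial keratins KRT18 and KRT8 had FPKM levels, which are scaled by gene length and library total, of 116.5 and 28.9 in the vehicle input and vimentin (VIM) had 236.7, while the ductal keratins KRT19 and KRT7 stood at 3.08 and 0.369. Of the markers of other cell types that were measured, PTPRC, VWF, DCN, TUBB3 and RBFOX3 stayed below 0.03 in every library, and the collagen gene COL1A1 lay between 1.31 and 2.18. The lists also came from libraries of unequal useful depth. The large mitochondrial ribosomal RNA MT-RNR2 took 68.0% of reads in the vehicle IP and 83.7% in the lactate IP, and outside it the vehicle IP held 1.76 times the reads of the lactate IP and the vehicle input 2.07 times those of the lactate input. The part of this difference in any result that sets one list against the other was not tested.

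NSUN2 is a methyltransferase of the nucleus and nucleolus that places 5-methylcytosine (m5C) on RNA. Its classical substrates are transfer RNAs, which it methylates around the variable loop, and vault RNAs, and it also acts on a set of messenger RNAs at cytosines that often lie in a CNGGG context. RNA from outside annotated genes can stem from transcription that runs on past the end of a gene, from divergent transcription upstream of promoters, from enhancers, from long noncoding RNAs that one annotation lists and another does not, and from expressed repeats or pseudogenes. The library kit makes full-length cDNA without marking the strand, so a read in these regions does not show which strand was transcribed.

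Some intergenic peaks reached into a promoter. In RefSeq's windows of 250 bases before a gene's start (GRCh38.p14), 46 of 7219 vehicle peaks and 5 of 2761 lactate peaks overlapped at least 1 base. Of these, 10 and 1 had a q-value below 0.05 from the authors' peak caller. The counts for other classes are not given here, so these do not show whether intergenic peaks favour or avoid promoters. The sequences show 6 of the windows, chosen after their values were seen: CCDC85B, where peaks of both lists meet, and the 5 of highest fold among vehicle peaks that cover over 100 bases. Each reads 5′ to 3′ on the gene's strand and ends just before its start, and capitals mark the bases that the vehicle peak covers.

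CCDC85B: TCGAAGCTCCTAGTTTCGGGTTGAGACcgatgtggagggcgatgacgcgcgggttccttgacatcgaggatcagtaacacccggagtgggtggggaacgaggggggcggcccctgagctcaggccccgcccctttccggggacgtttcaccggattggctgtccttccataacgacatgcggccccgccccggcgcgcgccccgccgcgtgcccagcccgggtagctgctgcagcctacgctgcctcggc
CELSR3: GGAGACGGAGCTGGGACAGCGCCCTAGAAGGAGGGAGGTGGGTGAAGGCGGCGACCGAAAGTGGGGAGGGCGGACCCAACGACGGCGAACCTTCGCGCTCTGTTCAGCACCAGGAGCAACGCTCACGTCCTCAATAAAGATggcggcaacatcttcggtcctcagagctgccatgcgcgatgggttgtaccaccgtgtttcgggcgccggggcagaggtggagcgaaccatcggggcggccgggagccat
YDJC: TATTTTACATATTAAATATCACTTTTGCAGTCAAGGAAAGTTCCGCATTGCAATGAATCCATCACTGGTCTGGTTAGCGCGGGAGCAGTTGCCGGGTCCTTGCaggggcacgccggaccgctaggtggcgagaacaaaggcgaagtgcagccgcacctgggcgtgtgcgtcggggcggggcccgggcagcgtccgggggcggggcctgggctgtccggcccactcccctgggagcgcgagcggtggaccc
LOC105374151: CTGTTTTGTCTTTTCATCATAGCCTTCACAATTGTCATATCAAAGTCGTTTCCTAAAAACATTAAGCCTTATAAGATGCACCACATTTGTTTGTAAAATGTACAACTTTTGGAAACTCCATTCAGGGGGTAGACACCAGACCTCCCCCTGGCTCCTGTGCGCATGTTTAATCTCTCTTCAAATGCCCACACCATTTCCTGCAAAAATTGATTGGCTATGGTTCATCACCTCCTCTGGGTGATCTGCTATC
CC2D2A: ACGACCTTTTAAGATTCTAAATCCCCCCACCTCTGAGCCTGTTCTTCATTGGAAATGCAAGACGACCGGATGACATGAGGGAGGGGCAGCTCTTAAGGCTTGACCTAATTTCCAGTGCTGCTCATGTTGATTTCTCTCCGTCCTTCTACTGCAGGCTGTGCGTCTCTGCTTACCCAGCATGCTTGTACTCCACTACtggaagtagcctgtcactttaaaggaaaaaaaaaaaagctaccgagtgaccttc
NXT2: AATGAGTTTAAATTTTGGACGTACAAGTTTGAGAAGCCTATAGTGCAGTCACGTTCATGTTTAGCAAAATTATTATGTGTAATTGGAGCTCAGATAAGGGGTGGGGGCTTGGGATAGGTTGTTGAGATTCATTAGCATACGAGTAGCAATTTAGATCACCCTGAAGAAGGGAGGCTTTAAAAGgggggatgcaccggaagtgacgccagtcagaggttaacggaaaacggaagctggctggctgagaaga

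The CCDC85B window lies on the forward strand at chr11:65890423-65890672, and the gene codes for a coiled-coil protein. Its vehicle peak covered the first 27 bases of the window with an authors' fold of 3.31 of IP over input, and its lactate peak covered the first 16 with a fold of 4.24. CELSR3, a cadherin-type receptor of axon guidance, had a vehicle peak of fold 6.67 over 141 bases of chr3:48662887-48663136 (reverse strand). The YDJC window at chr22:21630023-21630272 (reverse strand) had 103 covered bases at fold 6.11. A peak of fold 5.46 covered all 250 bases before the uncharacterised noncoding gene LOC105374151 (chr3:149404791-149405040, reverse strand). CC2D2A, a gene of the ciliary transition zone, had 196 covered bases at fold 4.95 (chr4:15469615-15469864, forward strand), and NXT2, a gene of messenger RNA export, had 183 at fold 4.85 (chrX:109535574-109535823, forward strand). None of these 5 peaks overlapped a lactate intergenic peak. The motif CNGGG was searched on both strands, with overlapping matches counted. On the gene's strand it occurred 11 times before YDJC, 5 before CELSR3, 3 before CCDC85B, 2 before LOC105374151 and 0 times before CC2D2A and NXT2. The median over 35116 RefSeq windows is 2, and 78.6% of them hold it at least once. On the other strand it occurred 9 times before CCDC85B, 2 before YDJC, 1 each before LOC105374151, CC2D2A and NXT2, and 0 before CELSR3. Over both strands the median of the RefSeq windows is 4, and 90.2% hold it. These counts are of the whole window, not only of the bases that a peak covers. A match says nothing of binding or methylation there, and the windows differ in base composition, from 68.8% G and C at CCDC85B to 41.6% at LOC105374151.

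Intergenic peaks were a small and mostly weak class. They made up 7.54% of the vehicle list (95% Wilson interval 7.37% to 7.71%) and 5.74% of the lactate list (5.54% to 5.95%), intervals that cover counting error only. A q-value below 0.05 was reached by 2185 intergenic peaks of the vehicle list, or 30.3%, where 48.6% of all its peaks did, and by 678 of the lactate list, or 24.6%, where 42.7% of all did. The share was lower than in every other class of each list: intron peaks had 41.3% and 34.8%, exon peaks 60.4% and 53.6%, and 3′ UTR peaks 70.6% and 65.0%. At the bottom of the lists, 2244 of 7219 vehicle and 852 of 2761 lactate intergenic peaks had a q-value of 1. Over all peaks, 17787 of 95785 in the vehicle list and 9151 of 48104 in the lactate list did. Among peaks with a q-value below 0.05 the intergenic share was 4.70% in vehicle and 3.30% in lactate cells.

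The peaks were narrow. Their median width was 200 bp in both lists, the smallest width the lists hold, and 4460 vehicle peaks (61.8%) and 1775 lactate peaks (64.3%) had exactly that width. Exon peaks had a median width of 309 bp in the vehicle and 269 bp in the lactate list, and intron peaks 212 and 200 bp. The widest 10% of intergenic peaks began at 449 bp in the vehicle and 402 bp in the lactate list. In all, the vehicle peaks covered 1962 kb and the lactate peaks 712 kb. With the width limited to the 2761 vehicle peaks of lowest p, as many as the lactate list holds, the vehicle median was 301 bp. That cut favours wide peaks and left the lactate list whole, so it does not compare the lists. With both lists held to a q-value below 0.05, the medians were 322 bp in vehicle and 309 bp in lactate cells.

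The widest peak of each list lay at the same place, inside the septin pseudogene SEPTIN7P13 on chromosome 1. It measured 2979 bp in vehicle cells (chr1:224011714-224014692) at fold 11.8, and 2921 bp in lactate cells (chr1:224011584-224014504) at fold 21.7. The next widest vehicle peaks were 2324 bp near the pseudogene HERC2P10 on chromosome 15, 2257 bp in LOC107985915 on chromosome 2, 2009 bp in SH3BGRL2 on chromosome 6 and 1951 bp before DMRTA1 on chromosome 9. The next widest lactate peaks were 1714 bp near LOC390933 on chromosome 19, 1673 bp in LOC124901589 on chromosome 7, 1431 bp in LOC107985915 and 1380 bp before DMRTA1. Thus 3 of the 5 widest sites, at SEPTIN7P13, LOC107985915 and DMRTA1, were the same in both lists.

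**Figure D1:**
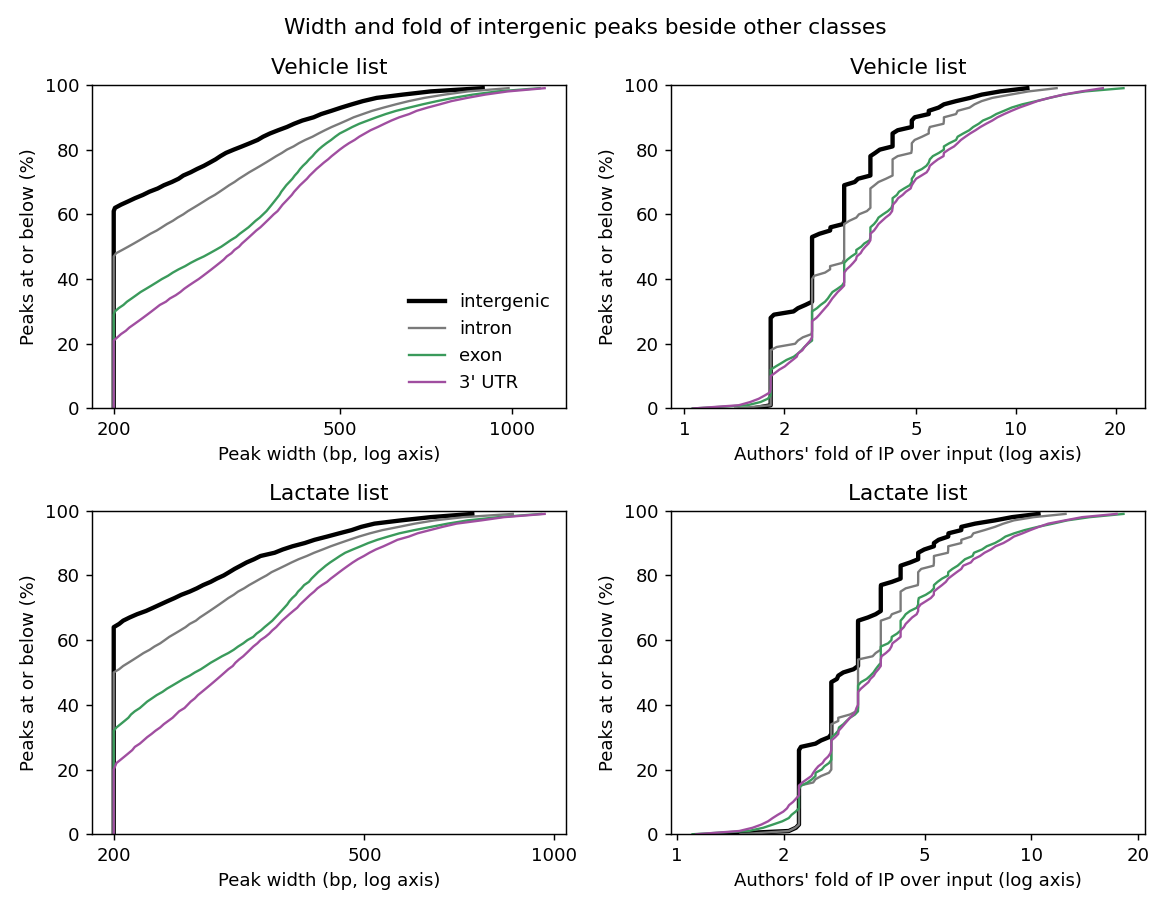
Share of peaks (y axis, percent) at or below a given width in bp (left) or authors' fold of IP over input (right), on log x axes, for intergenic, intron, exon and 3′ UTR peaks of the vehicle list (top) and the lactate list (bottom), up to the percentile 99. The intergenic curves lie farthest to the left in width, with 61.8% and 64.3% of peaks at 200 bp, and the fold curves climb in steps, of which the commonest among intergenic peaks are 1.82 and 2.21.

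The authors' fold of IP over input had a median of 2.43 at vehicle and 2.95 at lactate intergenic peaks, against 3.03 and 3.24 over all peaks of each list. Values repeated in steps. The commonest was 1.82 at 2024 vehicle peaks and 2.21 at 685 lactate peaks. The lists thus reach down to unequal folds, with 70.4% of vehicle but 99.3% of lactate intergenic peaks at a fold of 2 or more, and folds rank peaks here within a list. A fold of at least 5 was held by 719 vehicle peaks (9.96%) and 331 lactate peaks (11.99%), and a fold of at least 10 by 88 and 32. Over all peaks of each list, 19.9% and 20.8% had a fold of at least 5. A fold of at least 10 was held by 3817 of 95785 and 1569 of 48104.

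Most of the strongest sites stood in both lists. The highest vehicle fold, 28.5, belonged to chr1:165918129-165919033, which lies 6511 bp past the end of UCK2, the gene of a uridine-cytidine kinase. The lactate peak there had a fold of 10.5. The authors' comparison of the IP libraries, from which whole reads were recovered, gave 77 reads in the vehicle IP and 28 in the lactate IP at this site. Recovered reads are not scaled for depth. The log2 ratio M of lactate IP over vehicle IP, which the authors normalized, was −0.86 here. The peak chr9:22439410-22440333 followed at 26.95 and lies 6491 bp before DMRTA1, a gene of the DM-domain transcription factors. Its lactate peak had a fold of 21.8, the second highest of that list, and the 2 IP libraries had 89 and 69 reads (M 0.33). A second site before DMRTA1, chr9:22370480-22372430, had folds of 24.3 in vehicle and 19.1 in lactate cells and 250 and 284 reads (M 1.17).

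EDN1 codes for endothelin-1, a vasoconstrictor peptide, and had an input FPKM of 14.7 in vehicle and 7.21 in lactate cells. The peak chr6:12301517-12302429 lies 4323 bp past its end and had folds of 24.2 and 10.4. There the vehicle IP had 97 reads and the lactate IP 31 (M −1.01). The peak chrX:129422412-129423416 lies 13114 bp from RNA5SP513. Its nearest protein-coding gene, at 23.09 kb, is SMARCA1, a chromatin remodelling ATPase. This peak had the lowest ratio of lactate IP to vehicle IP among the 10 highest vehicle folds, with a log2 ratio of −2.34. Its fold was 17.6 in vehicle cells against 2.46 in lactate cells, where 59 and 8 reads were recovered. The other five of the 10 highest vehicle folds lay near LOC107987435 on chromosome 12 (22.4), OR7E102P on chromosome 2 (20.9), inside WASH4P on chromosome 16 (20.6), near KHSRPP1 on chromosome 9 (18.8) and near RN7SL338P (18.0), a copy of the signal recognition particle RNA. Each of the 10 overlapped a lactate intergenic peak.

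The highest lactate fold, 24.4, belonged to chr2:130070809-130071292, which lies 2243 bp past the end of POTEF, a member of an ankyrin and actin family of genes with close copies. Its vehicle peak had a fold of 9.82, and the 2 IP libraries had 81 and 60 reads (M 0.24). The SEPTIN7P13 peak (21.7) had 116 reads in the vehicle and 175 in the lactate IP (M 1.42). A peak near the pseudogene PHF10P2 on chromosome 22 had 21.7 against 10.3 in vehicle cells, with 97 vehicle and 86 lactate reads (M 0.56). Peaks near SPIN2P1 on chromosome X (18.2), at 2 sites inside the noncoding gene LOC124901589 on chromosome 7 (17.7 and 15.8) and near CDC27P9 on chromosome 21 (15.1) completed the list with those before DMRTA1 and a peak beside FBXL19-AS1. That last peak, chr16:30918741-30919209, had a fold of 20.3 and 469 bp and was the one among the 10 that no vehicle intergenic peak overlapped. The vehicle list had a peak there too, of 1344 bp and fold 39.8, but annotated as an exon of FBXL19-AS1. The recovered reads were 201 in the vehicle IP and 77 in the lactate IP (M −0.57). In all, 4 vehicle and 12 lactate intergenic peaks met only a peak of another class in the other list, as where a lactate peak near TEAD4 (fold 9.27) met a vehicle exon peak of fold 15.2. How the authors placed reads that match several copies of a sequence is not stated in the sources used here, so values at pseudogenes and gene families are uncertain.

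Overlap between the lists was low for this class. At least 1 bp was shared with an intergenic peak of the other list by 909 vehicle peaks, 12.6% of 7219 (11.8% to 13.4%), and by 930 lactate peaks, 33.7% of 2761 (31.9% to 35.5%). With a peak of any class, the counts were 913 and 942, or 12.6% and 34.1%, where 27.8% of all vehicle peaks and 56.4% of all lactate peaks overlapped the other list. Intron peaks had 23.6% and 47.1%, exon peaks 34.5% and 71.6%, and 3′ UTR peaks 43.8% and 79.4%. A stricter rule of 50% of both peaks left 555 in each list, or 7.69% and 20.1%. Among the 2761 vehicle peaks of lowest p, 23.4% overlapped a lactate intergenic peak, and 24.2% of lactate peaks overlapped one of these, and equal numbers bring both shares to about the same value by construction. A looser view took in more of them: 2551 vehicle peaks (35.3%) and 1777 lactate peaks (64.4%) had an intergenic peak of the other list within 10 kb.

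Shared peaks were wider and stronger than the rest. The rule of 1 bp of overlap itself favours wide peaks. Vehicle peaks had a median width of 200 bp below a fold of 2 and of 585.5 bp at 10 or more, so width and fold go together here. In the vehicle list the shared peaks had a median width of 359 bp and a median fold of 3.85, against 200 bp and 2.43 for the others. A q-value below 0.05 was held by 64.4% of the shared and 25.4% of the other vehicle peaks, and by 50.3% and 11.5% in the lactate list. The share that overlapped rose with fold within each list. Of vehicle peaks with a fold below 2, 3.14% overlapped a lactate intergenic peak, of those from 5 to 7 33.6%, and of the 88 at 10 or more, 66 did (an interval of 65.0% to 82.9%). In the lactate list the share was 18.1% from 2 to 3, 70.6% from 5 to 7, and 31 of the 32 peaks at 10 or more overlapped. The 19 lactate peaks below a fold of 2 went against this order, with 47.4% (27.3% to 68.3%). Counted by overlap with any peak of the other list, intergenic peaks lay below the other classes in every vehicle bin, with 66 of 88 against 85.7% at 10 or more. They also lay below in the lactate bins under a fold of 10, with 71.5% against 80.7% from 5 to 7, but not at 10 or more, where all 32 overlapped against 98.4% of the other classes.

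**Figure D2:**
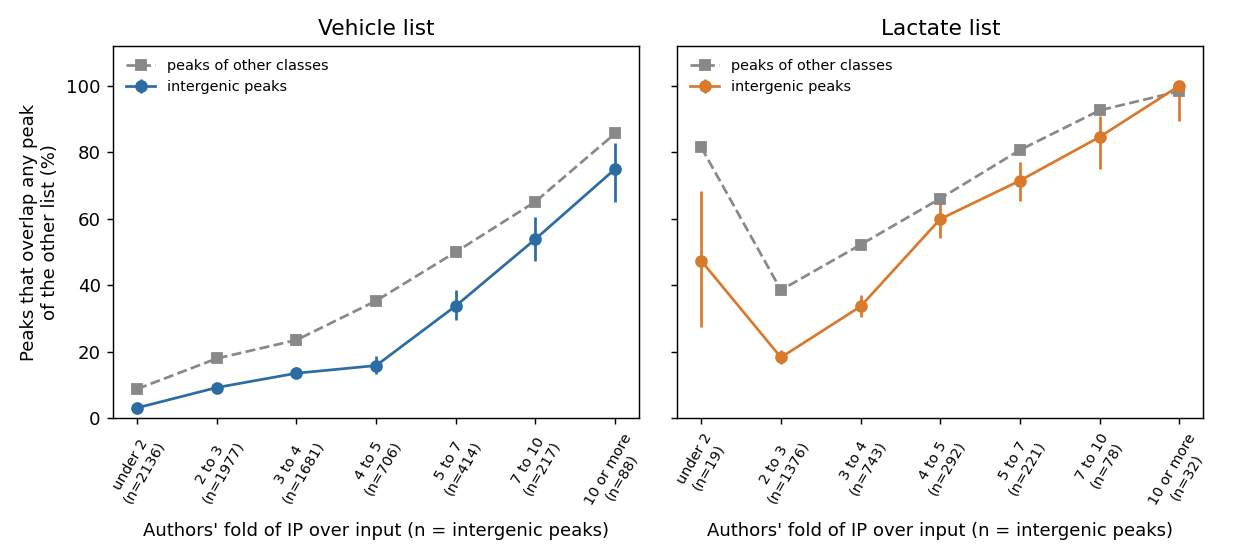
Percent of peaks that overlap any peak of the other list (y axis) by bin of the authors' fold (x axis) for the vehicle list (left) and the lactate list (right). Circles are intergenic peaks, with 95% Wilson intervals, and squares are peaks of other classes. From a fold of 2 upward both curves rise in each list, and the circles reach 66 of 88 vehicle and 32 of 32 lactate peaks in the highest bin.

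The 940 overlapping pairs shared a median of 200.5 bp. In 146 of them both folds were at least 5, and in 12 both were at least 10. Ranked by the lower fold of the pair, the sites before DMRTA1 came first at 21.8 and 19.1, then SPIN2P1 at 13.2 and SEPTIN7P13 at 11.8. LOC107987435 on chromosome 12 (11.5), LOC124901589 on chromosome 7 (11.3), PATE4 on chromosome 11 (11.1), UCK2 (10.5), and EDN1 and KHSRPP1 (10.4 each) made up the rest of the top 10. Of these 10 pairs, 3 lay on chromosome 9.

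Intergenic peaks were unevenly spread over the chromosomes. Chromosome 19, the most gene-dense, had the most per Mb in both lists, 5.85 in vehicle and 2.25 in lactate cells, against 2.34 and 0.894 over all chromosomes. In the vehicle list chromosomes 20 (3.50) and 6 (3.44) came next, and in the lactate list chromosomes 9 (1.57) and 20 (1.46). Chromosome Y had the fewest, with 9 vehicle peaks and 1 lactate peak. It was followed by chromosomes 14 (1.24) and 13 (1.29) in the vehicle list and by 13 (0.402) and 18 (0.411) in the lactate list. Per Mb outside RefSeq genes, chromosome 19 was again first, at 16.06 and 6.18, but the next ones changed. They were chromosomes 6 (7.94) and 17 (7.91) in the vehicle list and 17 (3.48) and 6 (3.30) in the lactate list. As a share of each chromosome's peaks of any class the order was another. Chromosome X had 12.7% in vehicle and 10.5% in lactate cells, chromosome 9 had 11.6% and 10.9%, and chromosome 15 had 4.35% and 2.99%, while chromosome 19 stood at 8.63% and 6.05%. Chromosome Y had 23 vehicle and 7 lactate peaks of any class, too few for a share to compare. Vehicle counts were above lactate counts on every chromosome. The ratio ran from 2.12 on chromosome 9 to 4.09 on chromosome 18 (135 and 33 peaks), apart from the few peaks on Y. Lengths are those from the first base to the end of the last RefSeq gene.

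**Figure D3:**
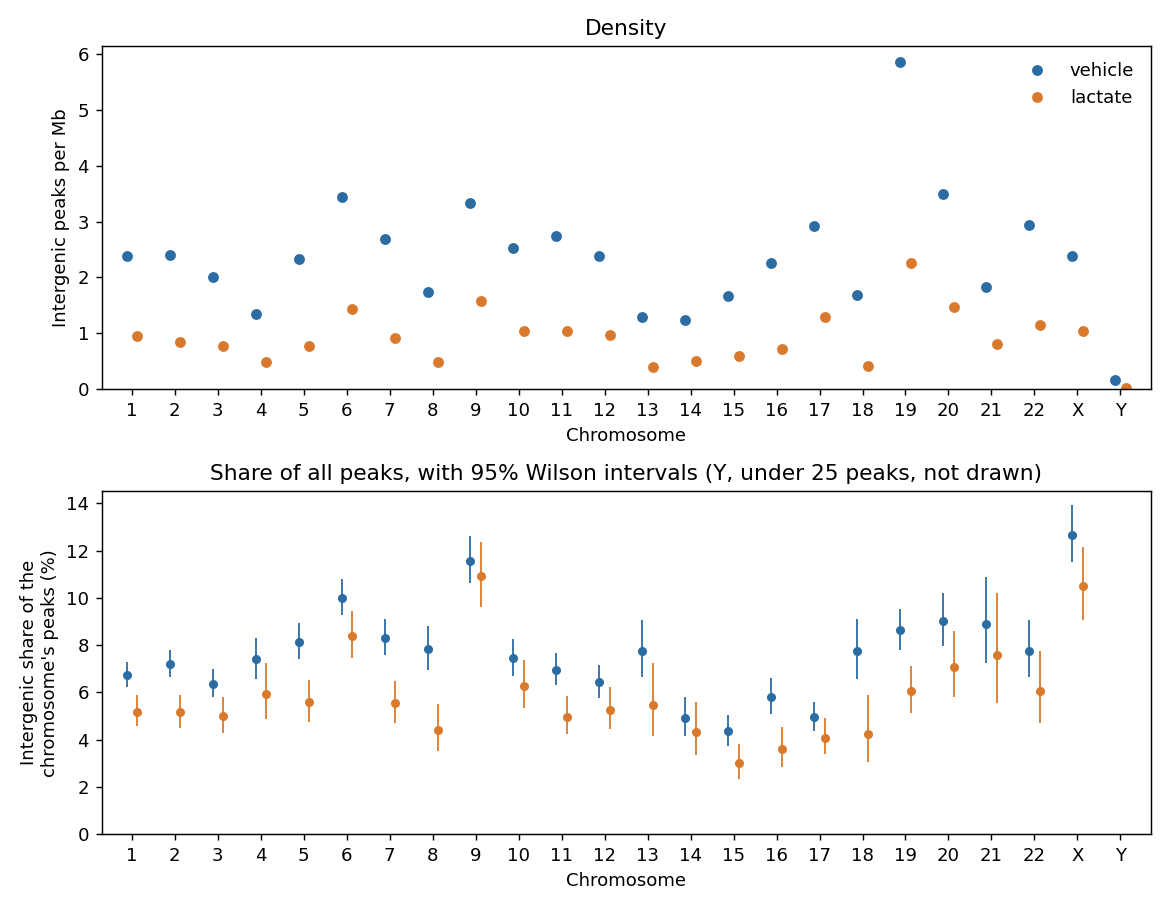
Intergenic peaks per Mb (top) and as a percent of all peaks of the chromosome (bottom, with 95% Wilson intervals) for each chromosome, vehicle in blue and lactate in orange. Chromosome 19 is highest in density, at 5.85 and 2.25, and chromosomes X and 9 are highest in share among the chromosomes drawn in the lower panel, which leaves out Y.

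Within chromosomes many peaks had another close by. Another intergenic peak of the same list lay within 10 kb of 3475 vehicle peaks (48.1%) and 1085 lactate peaks (39.3%). With a q-value below 0.05 the shares were 42.1% and 42.6%, so the order of the lists depends on the threshold. The shares of other classes are not given here. Joined at that distance, the vehicle peaks formed 4893 groups, of which 3744 were single peaks, and the lactate peaks 2062 groups, of which 1676 were single. Groups of 5 or more numbered 156 in the vehicle list, with 1062 peaks (14.7%), and 37 in the lactate list, with 252 peaks (9.13%). Peaks in larger groups were stronger and more often shared. Of vehicle peaks alone in their group 5.56% overlapped a lactate intergenic peak, of those in groups of 2 to 4 16.0%, and of those in groups of 5 or more 29.6%. The lactate shares were 21.5%, 48.9% and 64.7%. A q-value below 0.05 was held by 21.7%, 35.7% and 48.2% of vehicle peaks in the same order, and by 14.98%, 34.5% and 55.6% of lactate peaks.

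The largest group of each list lay before DMRTA1 on chromosome 9. In vehicle cells it held 21 peaks over 59.7 kb (chr9:22382713-22442434), of which 15 had a q-value below 0.05, and ended 4.39 kb before the gene. In lactate cells it held 19 peaks over 66.7 kb (chr9:22359803-22426491), of which 15 overlapped a vehicle intergenic peak. DMRTA1 itself had low levels, with an FPKM of 0.305 in input and 0.0263 in IP from vehicle cells and of 0.128 and 0.0589 from lactate cells. Between 21 and 23 Mb of this chromosome, intergenic peaks stood on both sides of a gap of 553.4 kb. Before the gap lay 18 vehicle and 8 lactate peaks, and after it 46 and 30, with 7 and 3 of a fold of at least 10, within 288.4 kb. In the gap, peaks of other classes numbered 2 and 3, of which 1 in each list had a q-value below 0.05. The gap holds genes that the lists annotate, where a peak is not labelled intergenic. Within the 288.4 kb there were no peaks of other classes in either list. MTAP, the gene of an enzyme that salvages methionine and adenine, lies in the gap and had at most 0.0123 FPKM in the 4 libraries, and the antisense RNA CDKN2B-AS1 at most 0.0226. As background, PANC-1 is known to have lost the neighbouring tumour suppressor gene CDKN2A. The part of this loss in the gap was not tested.

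The second largest vehicle group lay past the end of ZNF207, a zinc finger gene whose protein acts at the mitotic spindle. It held 15 peaks from 4.93 kb after the gene (chr17:32386818-32420638), 10 of them with a q-value below 0.05 and 8 shared, and the lactate list had a group of 10 there, 8 of them shared. Its folds were moderate, at most 7.09 in vehicle and 5.78 in lactate cells. Before ADGRG6, an adhesion receptor that Schwann cells need for myelination, 12 vehicle peaks spanned chr6:142261895-142283652 and 8 of them were shared. The lactate group there had 9 peaks, also 8 shared. At most 289 reads per region were recovered in the vehicle IP and 113 in the lactate IP. The median M was −0.32 over the regions of the vehicle group. ADGRG6 had an input FPKM of 7.32 in vehicle and 4.90 in lactate cells.

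**Figure D4:**
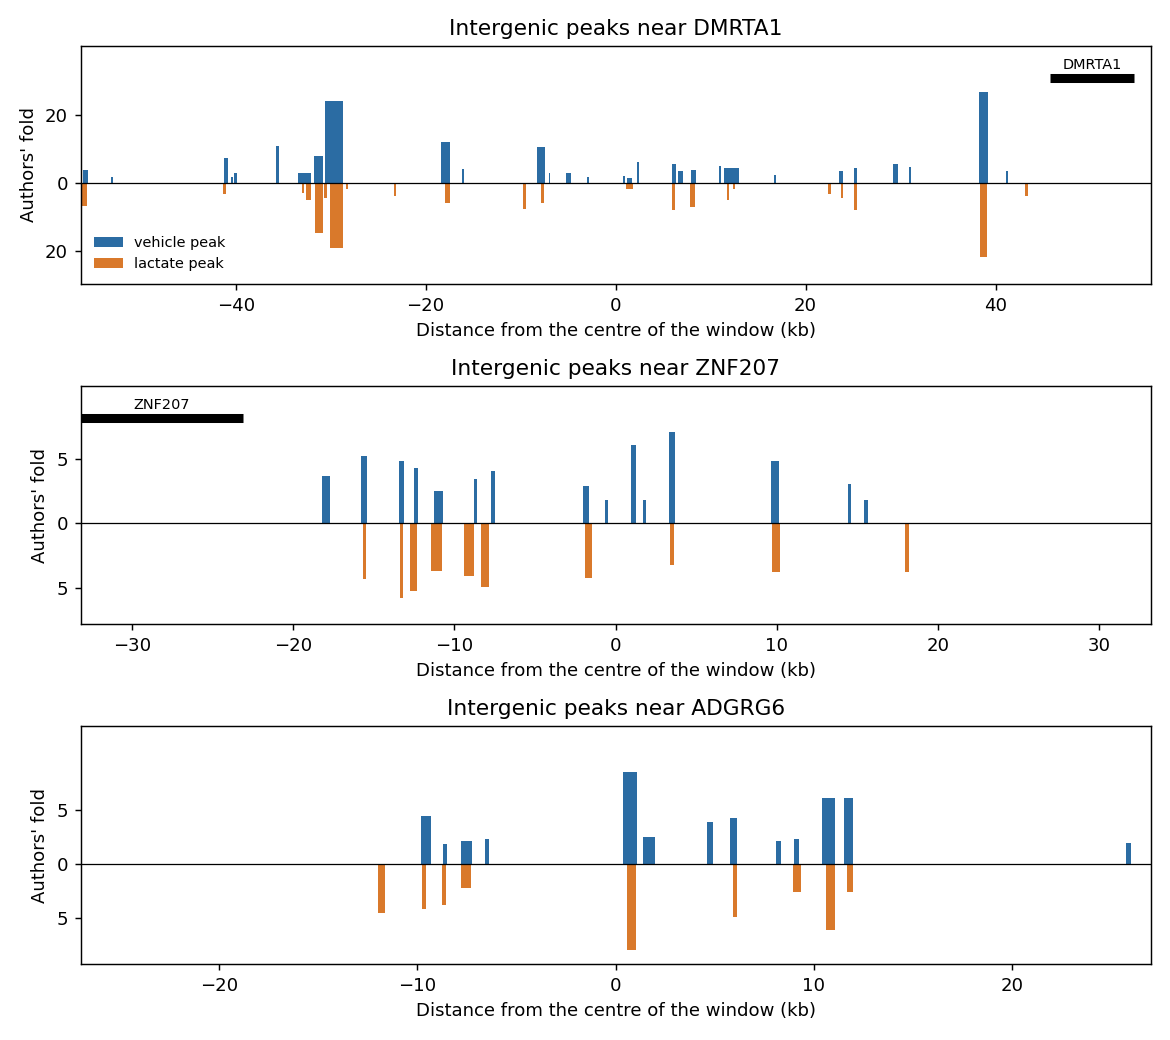
Intergenic peaks of the vehicle list (blue, upward) and the lactate list (orange, downward) as bars of the authors' fold over the distance from the window's centre in kb, for the groups near DMRTA1, ZNF207 and ADGRG6, with protein-coding genes in black where they reach into the window. Bars face each other at many positions, and the tallest pairs stand near DMRTA1, with folds of 26.95 and 21.8 to the right and 24.3 and 19.1 to the left.

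Groups between PATE3 and PATE4 on chromosome 11, genes of sperm and testis proteins, held 13 vehicle and 10 lactate peaks. Between FBXO27 and ACP7 on chromosome 19 they held 13 and 8, and before PSMC4, an ATPase subunit of the proteasome, 11 and 9. Beyond THSD7A on chromosome 7, all 13 vehicle and 11 lactate peaks of a group lay inside LOC124901589, a noncoding gene that RefSeq lists. The group of 12 vehicle peaks inside SH3BGRL2 and the lactate groups of 7 inside RGP1, a trafficking factor, and 7 inside BAZ2B, a bromodomain gene, also lay within RefSeq gene bounds though the lists call the peaks intergenic. The 13 lactate peaks next to NEBL on chromosome 10 and the 12 vehicle peaks across LRRC37A on chromosome 17 completed the largest groups with one next to NUDCD1. That group on chromosome 8 had 12 vehicle peaks, of which 3 were shared, and its compared regions had a median of 13 reads in the vehicle IP and 2 in the lactate IP. The matching medians were 37 and 16 before DMRTA1, 15 and 16 past ZNF207, and 8.5 and 13 at the lactate group next to NEBL. The median of the normalized M was −1.02 next to NUDCD1, −0.07 before DMRTA1, 0.18 past ZNF207 and 0.19 next to NEBL.

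Counted in bins of 1 Mb, 1972 bins held a vehicle intergenic peak and 1192 a lactate one. Both lists had a peak in 1043 bins, 52.9% of the vehicle and 87.5% of the lactate bins. The fullest bin of both lists, chosen after its values were seen, was the one from 141 to 142 Mb of chromosome 6. It had 61 vehicle peaks, among 62 peaks of any class, and 34 lactate peaks among 34, and RefSeq places 1 protein-coding gene in it. Noncoding genes LOC105378030 and LOC105378031 of RefSeq held some of them, as 25 vehicle and 17 lactate peaks lay inside a RefSeq gene. The bin from 27 to 28 Mb of the same chromosome differed from it. It had 42 vehicle and 9 lactate peaks, and 3 of the vehicle peaks were shared.

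That bin belongs to the region of histone and tRNA genes. Within 1 kb of a RefSeq tRNA gene lay 23 vehicle intergenic peaks (0.319%), 10 of them on chromosome 6, and 3 lactate peaks (0.109%), 2 of them there. RefSeq lists 443 tRNA genes, 155 of them on chromosome 6. Of the 23, 7 had a q-value below 0.05 and 4 overlapped the tRNA gene itself, and of the 3 none had and none did. The strongest was chr6:27901625-27902038, 455 bp from TRX-CAT1-7, a tRNA gene of anticodon CAT, with a fold of 9.10. The share within 1 kb of a tRNA gene was 0.105% among exon and 0.0186% among intron peaks of the vehicle list, and 0.0839% and 0.0180% in the lactate list. Peaks in 5′ UTRs had 0.0642% (1 of 1558) and 0.309% (2 of 647), the latter above the lactate intergenic share. The intervals of the intergenic shares were 0.212% to 0.478% and 0.0370% to 0.319%. They cover counting error only and treat peaks as independent, so they do not compare the conditions. No intergenic peak lay inside a RefSeq rRNA gene, and 3 vehicle and 1 lactate peaks lay inside the 487 nuclear copies of mitochondrial sequence that RefSeq lists.

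Set against RefSeq, a good part of the class was close to genes or in them. Inside the bounds of a RefSeq gene lay 1663 vehicle peaks (23.04%) and 643 lactate peaks (23.3%), mostly of noncoding genes, with 990 and 360 inside a lncRNA gene and 567 and 247 inside a protein-coding gene. A further 2381 (33.0%) and 949 (34.4%) lay outside but within 5 kb of a gene, and 445 (6.16%) and 168 (6.08%) lay over 50 kb from any. The median distance of peaks outside was 6438 bp in the vehicle and 6070 bp in the lactate list. These shares differed little between the lists. Of vehicle peaks, 19.2% of those inside a protein-coding gene overlapped a lactate intergenic peak, 12.4% of those inside a lncRNA gene, 12.7% of those outside within 1 kb, 13.6% within 5 kb and 8.31% over 50 kb away. The lactate shares in the same order were 46.2%, 34.7%, 31.8%, 34.0% and 23.8%. The share was thus highest inside protein-coding genes and lowest over 50 kb away among these positions, with no steady order between.

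More of the peaks flanking protein-coding genes lay past the end than before the start. Of vehicle peaks outside genes, within 5 kb of a protein-coding gene of known strand, 641 lay downstream and 442 upstream, a downstream share of 59.2% (56.2% to 62.1%). The lactate counts were 282 and 154, or 64.7% (60.1% to 69.0%). Some genes had several peaks: the vehicle peaks flanked 535 and 397 genes and the lactate peaks 250 and 144. The intervals treat peaks as independent and cover counting error only. Downstream peaks were also shared more often, 17.8% against 9.73% in the vehicle list and 39.7% against 27.3% in the lactate list. Genes with a peak upstream were the better expressed, with an FPKM of at least 1 in 52.1% of them in the vehicle input and 48.1% in the lactate input. Genes with a peak downstream had 34.5% and 31.1%, near the 38.1% and 31.7% of all protein-coding genes in the table. RefSeq gives a strand here for the genes with a promoter window, and the other genes entered neither count.

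The authors' comparison of the IP libraries set 116484 regions of both lists side by side, of which 9021 matched intergenic peaks alone: 6304 called in vehicle cells, 1818 in lactate cells and 899 in both. Its log2 ratio M of lactate IP over vehicle IP, normalized by the authors, had a median of −1.12 at intergenic regions and −0.50 over all regions. M was at least 1 at 1515 intergenic regions, or 16.8%, where 13.9% of all regions were, and at most −1 at 4819, or 53.4%, where 38.6% of all were. The median depended on which list had called the region. It was −1.82 where vehicle cells alone had a peak, 1.80 where lactate cells alone had one and 0.13 where both had, so the overall value moves with the number of peaks each list holds. At the 899 common intergenic regions M was at least 1 in 13.7% and at most −1 in 5.90%, against 9.05% and 9.42% at common regions outside the class. Their average log2 density A was lower, with a median of 2.75 against 3.25. At A from 1 to 2, M was at least 1 in 17.4% of intergenic and 16.1% of other regions, and at most −1 in 1.54% and 9.60%. At A from 2 to 3 M was at least 1 in 15.6% and 13.1%, and at most −1 in 7.30% and 12.1%. At A from 3 to 4 the shares were 11.2% and 8.64%, and 9.18% and 11.4%. At A from 4 to 6 they were 6.54% and 3.65%, and 2.61% and 5.32%. The part of depth in this was not tested.

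Reads behind these values were few. Intergenic regions had a median of 4 recovered reads in the vehicle IP and 1 in the lactate IP, where all regions had 7 and 5. At 6983 of them (77.4%) both libraries had under 10 reads, against 56.2% over all regions, and at 41.2% the lactate IP had 0 reads and at 13.8% the vehicle IP. At 227 regions both had 0 reads although a peak had been called, so these counts do not hold every read behind the peak calls. No difference at a single region of so few reads is drawn from them. The common regions were deeper, with medians of 13 and 12 reads.

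**Figure D5:**
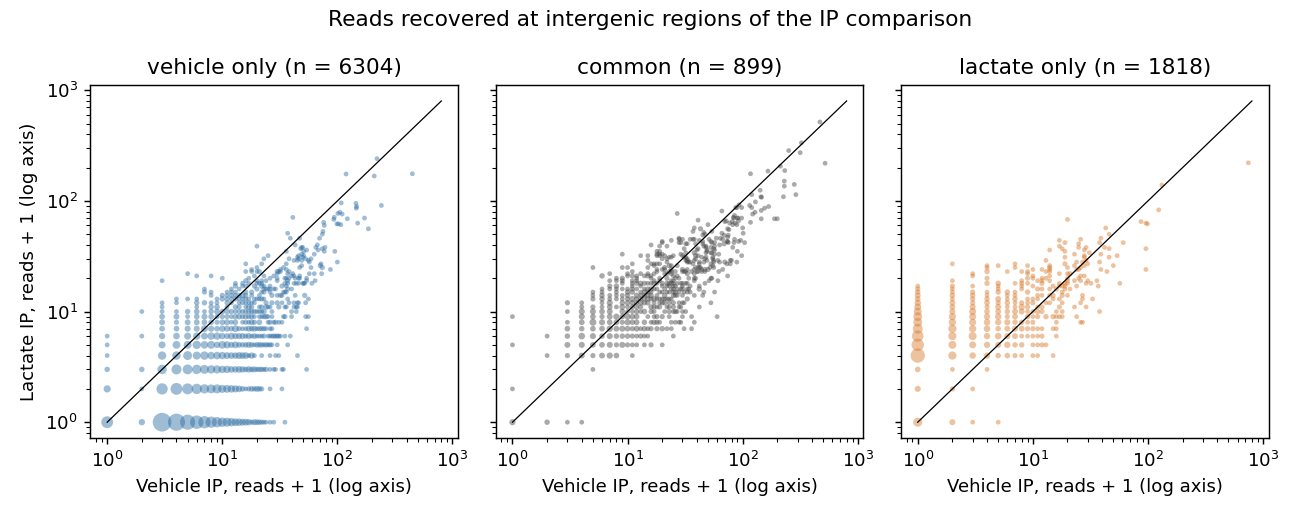
Recovered reads plus 1 in the lactate IP (y axis, log) against the vehicle IP (x axis, log) at intergenic regions called in vehicle cells alone (n = 6304), in both (n = 899) and in lactate cells alone (n = 1818). Point area grows with the number of regions at the same values and the line marks equal reads. Most points of the outer panels lie at under 10 reads, and the common regions run along the line.

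Among regions with an average log2 density A at or above the median of all regions, the 5 highest values of M came from lactate peaks with 1 read in the vehicle IP. They were chr7:12079243-12079442 in LOC124901589 (26 lactate reads, M 3.87), a second region in the same gene (18 reads, 3.32), and regions near LOC124904572 on chromosome 1 (16 reads, 3.14), SCART1 on chromosome 10 (16 reads, 3.14) and CHEK2P3 on chromosome 2 (15 reads, 3.05). At the low end stood regions in LOC112268265 on chromosome 20 (53 and 2 reads, −3.92), near NUDCD1 (32 and 1 reads, −3.91), near ATP23 on chromosome 12 (25 and 1 reads, −3.59) and near ZNF66 on chromosome 19 (21 and 1 reads, −3.37). Each of these 4 was called in vehicle cells alone.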

How the data were processed

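Per the labels' protocols, anti-NSUN2 RNA immunoprecipitation and input libraries of PANC-1 cells used the SMART-Seq v4 kit. It adds no molecular identifiers. The submitters' processing notes name build GRCh38, HISAT2 (2.1.0), fastp (0.20.1), bedtools (2.29.2), MACS2 (2.2.7.1), DiffBind and HOMER (4.11.1). Settings, annotation release and the tool behind the IP comparison are not stated in those notes or the files. The authors deposited, per the file headers, peak widths, a fold enrichment ratio of each IP over its own input, p-values and q-values with their −log10, gene values in FPKM, and for the IP comparison a normalized read density (signal) with its log2 ratio M and log2 mean A.

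Intervals were compared in Python 3.11.15 with pandas 2.3.3 and numpy 2.4.6: peaks overlapped at 1 bp or more, and groups joined peaks at most 10 kb apart. The interval functions and the read recovery were tested on simulated data. M and A gave the whole reads of each region once the line −0.20 + 0.17 A was subtracted. Of 113291 regions under 200 reads per library, 100% were whole to within 0.02 reads. The region width counted over is not given. Relative depth came from the most common ratio of low FPKM values (379 of 1395 genes for the IP libraries) and the 1559 bp of MT-RNR2. RefSeq's GRCh38.p14 table gave gene bounds, and its promoter table the strand for 27305 of 59679 genes. Base composition of the peaks was not analysed here, for lack of a genome sequence.

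Regions named were, per list, the 10 highest folds with a q-value below 0.05, the 5 widest, the 10 largest groups, the 10 pairs of highest lower fold, the 5 extremes of M at each end (1 of them is not reported here) and the 3 chromosomes at each end of peaks per Mb. The class, lists and rules were chosen with earlier results of these data known. Wilson intervals are at 95%. Alternatives were other thresholds on q-value and fold, overlap rules, distances, equal numbers of peaks and filters on M.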

Additional observations from a re-analysis of the deposited data

How the results depend on the processing

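Most values moved with the threshold, as the class is largely weak peaks; direction between the lists held except as stated. At a q-value below 0.05 the vehicle and lactate lists kept 2185 and 678 intergenic peaks (4.70% and 3.30% of peaks, median width 322 and 309 bp, 0.708 and 0.220 per Mb, 42.1% and 42.6% within 10 kb of another, 16.6% and 54.6% overlapping), and below 0.01 they kept 1601 and 517 (4.14% and 3.03%, 357 and 324 bp, 17.6% and 55.7% overlapping). At a fold of at least 2 the vehicle share was 6.48% with a median of 211 bp, and 16.4% and 31.2% overlapped. The nearby share thus came level, at 42.1% and 42.6%, where the full lists gave 48.1% and 39.3%. With overlap of 50% of the narrower peak the shares were 11.1% and 29.8% (with any peak 11.2% and 30.2%), and with 50% of both 7.69% and 20.1%. Nearby shares were 17.5% and 15.4% within 1 kb and 71.7% and 59.4% within 100 kb. Inside or within 5 kb of a RefSeq gene lay 56.0% and 57.7%, within 1 kb 32.4% and 32.7%, and within 10 kb 71.4% and 72.5%. Chosen after seeing the data, equal numbers of peaks, with only the vehicle list cut by lowest p, gave a vehicle median width of 301 bp. They gave 43.7% nearby, and 23.4% and 24.2% overlapping. Also chosen after seeing the data, densities per Mb outside RefSeq genes were 5.12 and 1.96. The median M of −1.12 was −0.15 at regions of A at or above the median and −0.63 relative to all regions, and reversed to 0.13 at regions common to both lists, a smaller set by construction. Ranked by −log10 q in place of fold, 10 and 9 of the 10 highest peaks were shared as before, with 4 and 6 of the 10 the same by either rank. No paired analysis was possible because each group has 1 library and no result comes from a test. Depth limits single regions, as 77.4% of intergenic regions had under 10 reads in both IP libraries.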
